A study of Mus musculus with 49 samples.

Results

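Saa3, the gene of serum amyloid A 3, and Hp, the gene of haptoglobin, were followed through serum-transferred arthritis as a pair of acute phase genes, in the joint, in the synovial fluid and in blood. They are 2 of the 8251 genes measured, and each is read by 1 probe set annotated to its symbol alone: 102712_at for Saa3 (gene ID 20210, chr7:46711998-46719615) and 96092_at for Hp (gene ID 15439, chr8:109575128-109579172, both in GRCm38.p6). Saa3 was selected on its ankle intensities, since its rise in ankle at days 3 to 18 was the largest of all genes. Hp was set beside it with its ankle values known. All differences of both genes within ankle are therefore given as a description with no test, and so are those of Saa3 between ankle and another tissue. Hp was tested between tissues, since no Hp value entered the choice of Saa3. The Hp tests that involve ankle use values known when Hp was set beside Saa3, which limits their p-values.

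Acute phase proteins are plasma proteins whose production goes up in inflammation, classically in the liver under interleukin-6 and interleukin-1. Saa3 differs from the liver forms Saa1 and Saa2 in that mouse macrophages, fibroblasts and adipocytes make it in inflamed tissue. Haptoglobin binds free haemoglobin and hands it to macrophages through the receptor CD163. Its main source is the hepatocyte, adipose tissue makes it too, and in humans it is also stored in granules of neutrophils.

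The study profiled whole ankle, cells of the synovial fluid and leukocytes of peripheral blood on 49 Affymetrix arrays, 1 per sample, from male B6 mice of 6 weeks injected with serum of K/BxN mice, which carries arthritogenic autoantibodies. Ankle was taken at day 0 (4 arrays), day 1 (2), day 3 (3), day 7 (4), day 12 (3) and day 18 (3) after the first injection, fluid cells at day 3 (3), day 7 (4), day 12 (3) and day 18 (3), and blood leukocytes at days 0, 1, 3, 7 and 12 (3 each) and day 18 (2). Values are log2 intensities, differences are log2 differences ± the standard error from limma, and a call is an adjusted p under 0.05 over all 8251 genes. Of the values of 34 negative control probe sets, pooled over all arrays, 95% lay under a log2 intensity of 6.85. This is the negative control level below, and a fold is given only where both group means lay above it.

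Some facts of the arrays touch the results below. Ankle RNA was amplified in a pair of transcription rounds, while most fluid RNA was amplified with another kit, so tissue and preparation cannot be told apart in comparisons between tissues. Fluid of replicate 1 at days 3 and 7 came from washing dissected ankles, and fluid day 7 replicate 4, fluid day 18 replicate 3 and blood day 3 replicate 3 carry a description unlike those of their groups. Only blood samples are called biological replicates, and elsewhere p-values measure the spread between samples that may be technical. Lymphocyte markers had a summed intensity of 4560 to 6781 in blood, against 514 to 657 in fluid and 496 to 719 in ankle. The beta-actin controls, compared as 3' over 5' signal, gave a log2 ratio that lay between 3.15 and 4.25 in ankle after day 0, against 2.73 to 3.50 at day 0.

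Saa3 was under the negative control level in ankle at day 0 and was among the strong signals of the tissue from day 3 on. On the day 0 arrays Saa3 read 5.81, 6.77, 5.52 and 6.48. On the day 1 arrays it read 8.07 and 7.93, and on the day 3 arrays 11.72, 10.10 and 10.77. By day 1 both arrays lay above all 4 of day 0, a separation in either direction that 5.66% of all genes showed, and at day 3 the spread between arrays was wide, with replicate 1 highest. Saa3 read 11.96, 12.56, 11.77 and 11.31 on day 7, 11.95, 12.098 and 11.45 on day 12, and 11.69, 11.54 and 11.81 on day 18. The arrays of these later days overlapped one another, and none overlapped with day 0.

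Saa3 differed from day 0 by 4.72 ± 0.35 (day 3), 5.76 ± 0.33 (day 7), 5.69 ± 0.35 (day 12) and 5.54 ± 0.35 (day 18), each the largest rise among the 8251 genes, as its choice requires. Its mean at day 0, 6.14, lay under the negative control level, so that each difference is at best a lower bound. Arrays of the groups did not overlap for 6.88%, 9.94%, 10.8% and 14.7% of all genes at these days.

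At day 1 Saa3 differed from day 0 by 1.86 ± 0.40 (2 arrays against 4), a difference that shares the day 0 arrays with the choice. Between later days Saa3 differed by 1.04 ± 0.35 for day 7 against day 3. Without day 3 replicate 1 that difference was 1.47, and without day 3 replicate 2 it was 0.66. Saa3 differed by -0.07 ± 0.35 for day 12 against day 7 and by -0.22 ± 0.35 for day 18 against day 7. The 95% intervals of the last comparisons, -0.81 to 0.67 and -0.96 to 0.52, leave room for a fall of nearly 1 on the log2 scale and for a rise of up to 0.67.

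**Figure D1:**
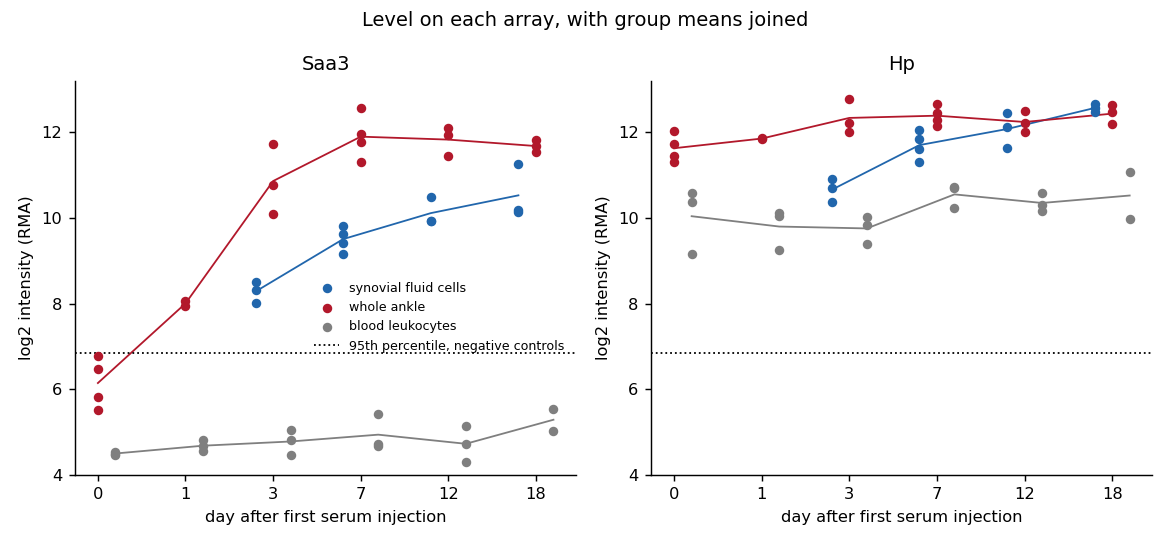
Log2 intensity of Saa3 (left) and Hp (right) on each array by day after the first serum injection, with group means joined by lines, for synovial fluid cells (blue), whole ankle (red) and blood leukocytes (grey); the dotted line is the 95th percentile of the negative controls, 6.85. Saa3 stays under that line on all 17 blood arrays and all 4 ankle arrays of day 0, while Hp is above it on all 49 arrays.

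The 250 bases before a start site of Saa3 and of Saa2 are shown to set the pair side by side. They were taken from the RefSeq promoter table in GRCm38.p6. Among the other serum amyloid A genes analysed, only Saa2 had a probe set above the negative control level on the ankle arrays. That probe set is shared within a gene family. The other Saa2 probe set, 100333_at, lay under the negative control level on all ankle arrays, between 5.31 and 6.65. Saa3 is read from chr7:46715677-46715926 on the minus strand and Saa2 from chr7:46751583-46751832 on the plus strand. The Saa3 window lies within the span of the gene given above, so its start site is internal to that span and not its outer end. Capitals mark matches of TTNNGNAA, on either strand, a short form of the site of C/EBP factors, which take part in acute phase transcription.
Saa3: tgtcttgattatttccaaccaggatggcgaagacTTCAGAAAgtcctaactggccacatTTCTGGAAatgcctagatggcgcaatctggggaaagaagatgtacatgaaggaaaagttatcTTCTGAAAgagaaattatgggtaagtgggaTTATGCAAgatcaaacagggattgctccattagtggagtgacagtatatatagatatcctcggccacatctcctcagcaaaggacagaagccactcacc
Saa2: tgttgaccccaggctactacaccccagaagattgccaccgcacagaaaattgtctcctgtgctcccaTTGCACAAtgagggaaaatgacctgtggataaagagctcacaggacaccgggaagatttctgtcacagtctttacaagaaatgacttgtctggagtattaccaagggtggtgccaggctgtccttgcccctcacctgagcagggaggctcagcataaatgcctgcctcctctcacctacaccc
The Saa3 window holds 4 such matches, at -216 to -209, -191 to -184, -129 to -122 and -99 to -92 from the start site, and the Saa2 window holds 1, at -183 to -176. The windows of Saa1 and Saa4, not printed here, hold 2 each. Of 32851 promoter windows of this length, 36.8% hold at least 1 match and 0.59% hold 4 or more. The letters TTCNNNGAA of STAT factors (7.0% of windows), TATAAA (12.4%) and the NF-kB motif (7.3%) were found in neither window on either strand, which says only that these letters are not in these bases. The matches are a description of the sequence and not sites of binding.

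Hp, in contrast to Saa3, was already high in ankle at day 0. It read 12.03, 11.44, 11.74 and 11.31 on the day 0 arrays and 11.84 and 11.87 on the day 1 arrays. It read 12.78, 12.21 and 12.02 (day 3), 12.45, 12.67, 12.29 and 12.16 (day 7), 12.50, 12.21 and 12.01 (day 12), and 12.197, 12.47 and 12.65 (day 18). The day 7 and day 18 arrays all lay above day 0, while at days 3 and 12 the lowest array fell under day 0 replicate 1, the highest of that group. The differences of Hp from day 0 were 0.71 ± 0.22 (day 3), 0.76 ± 0.20 (day 7), 0.61 ± 0.22 (day 12) and 0.81 ± 0.22 (day 18), which are 1.63-fold, 1.69-fold, 1.53-fold and 1.75-fold. With the beta-actin ratio as covariate these differences of Hp were 0.56 ± 0.25, 0.59 ± 0.24, 0.39 ± 0.28 and 0.68 ± 0.24, the day 12 value thus lower by more than 1.5 times. For Saa3 that covariate left 4.63 ± 0.41, 5.65 ± 0.41, 5.55 ± 0.47 and 5.46 ± 0.40. The part of RNA length in the Hp differences was not tested further.

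At day 1 Hp differed from day 0 by 0.23 ± 0.25 (2 arrays against 4), its arrays within the range of day 0. Between later days it differed by 0.05 ± 0.22 for day 7 against day 3, by -0.15 ± 0.22 for day 12 against day 7 and by 0.05 ± 0.22 for day 18 against day 7, each within 1 SE of 0. Over the 19 ankle arrays Saa3 and Hp correlated at r = 0.80, and after each day's mean was taken off the remaining values correlated at r = 0.29. The first value carries the shared course over days, and both come from the same arrays.

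Hepatocytes make Hp and Saa2 in bulk, and 4 ankle arrays stood apart in hepatocyte transcripts. These liver-transcript arrays were replicate 1 of days 0, 1, 7 and 12, with Alb, the albumin gene and the defining hepatocyte marker, at 8.95, 6.39, 8.41 and 10.65. In the other 15 ankle arrays Alb lay between 4.36 and 5.19, and it was at most 5.24 in fluid and blood. Of the 14 hepatocyte markers measured, 6 lay above the negative control level in the liver-transcript array of day 0 and 8 in that of day 12. The summed intensity of the list reached 2565 (day 0), 1083 (day 1), 1751 (day 7) and 6181 (day 12), and lay between 634 and 678 (day 3) and between 514 and 536 (day 18).

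Saa3 was not highest on the liver-transcript array at days 0, 7 and 12. Its value on the liver-transcript array differed from the mean of the other arrays of its day by -0.45 (day 0), 0.14 (day 1), 0.08 (day 7) and 0.17 (day 12), and lay within their range at days 0, 7 and 12. Without the 4 arrays Saa3 differed from day 0 by 4.61 ± 0.41, 5.62 ± 0.41, 5.52 ± 0.46 and 5.42 ± 0.41 at days 3, 7, 12 and 18. At day 1, where 1 array was left, it differed by 1.68 ± 0.58. At day 18 every hepatocyte marker was under the negative control level on all 3 arrays, while Saa3 read at least 11.54.

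Hp was highest on the liver-transcript array at days 0 and 12. That array lay above the mean of the others by 0.54 (day 0) and by 0.39 (day 12), and differed by -0.03 (day 1) and 0.08 (day 7). Without the 4 arrays Hp differed from day 0 by 0.84 ± 0.23 (day 3), 0.87 ± 0.23 (day 7), 0.62 ± 0.26 (day 12) and 0.94 ± 0.23 (day 18). The day 0 arrays left, 11.44, 11.74 and 11.31, lay under every Hp array of days 3 to 18. The highest Hp array of day 0 was among those left out, and the share of all genes so separated was not computed. Saa2 was 0.62, 0.50, 0.36 and 0.38 higher in the liver-transcript array than in the others of days 0, 1, 7 and 12.

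**Figure D2:**
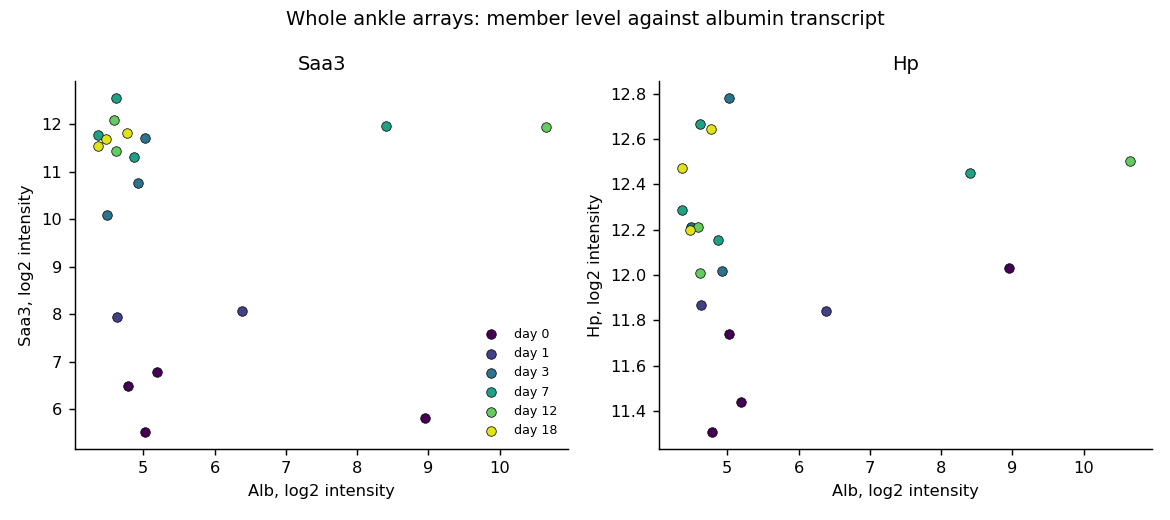
Log2 intensity of Saa3 (left) and Hp (right) against that of Alb on the 19 whole ankle arrays, coloured by day. The 4 arrays with Alb above 6 are spread over the range of Saa3 according to their day; for Hp they include the highest arrays of days 0 and 12, at 12.03 and 12.50.

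Of 6 markers of adipocytes, which also make haptoglobin, 2 fell at each of days 7, 12 and 18, which is 33.3% of the list. Of all genes 6.73%, 3.24% and 2.01% were called at these days in either direction. The day 7 call of Lep was lost on leaving out any of 5 single arrays (limma adjusted p between 0.0774 and 0.149) and without the liver-transcript arrays (0.212). That of Cidec at day 12 was lost on leaving out any of 5 single arrays (0.0551 to 0.181), without the liver-transcript arrays (0.0634) and under the beta-actin covariate (0.0752). Its day 18 call was lost on leaving out either of 2 single arrays (0.0608 and 0.125). The summed intensity of 6 adipocyte markers was 1818 to 3036 (day 0), 2505 to 2959 (day 3), 999 to 2435 (day 7), 1405 to 2099 (day 12) and 918 to 1226 (day 18). Of 12 neutrophil markers 3, 3 and 6 rose at days 7, 12 and 18 (25%, 25% and 50% of the list), and their summed intensity was 1005 to 1049 (day 0), 1183 to 1473 (day 3), 2637 to 4234 (day 7), 2033 to 3243 (day 12) and 3406 to 4687 (day 18). Of 11 monocyte and macrophage markers 2 rose at day 3, where 0.23% of all genes were called, 2 at day 7, 1 at day 12 and 1 at day 18. Msr1, a scavenger receptor of macrophages, rose at day 3 by 1.11 ± 0.18 and at day 7 by 1.29 ± 0.17 (limma adjusted p = 0.00866 and 0.000102). Ccr2, a chemokine receptor of monocytes, rose at day 3 by 1.53 ± 0.26 and at day 7 by 1.17 ± 0.24 (adjusted p = 0.0121 and 0.00521), with means under the negative control level. The day 3 call of Msr1 was lost without day 3 replicate 1 (0.114), that of Ccr2 without day 0 replicate 3 or day 3 replicate 1 or 3 (0.0543 to 0.117), and both under the beta-actin covariate (0.0763 and 0.121). That covariate also lost the day 7 call of Ccr2 (0.0571). The summed intensity of the list, 3474 to 5688 (day 3) and 3009 to 5141 (day 7), overlapped with day 0 (3452 to 4548). The part of these cells in the levels of Saa3 and Hp was not tested. In bulk tissue fewer cells of a type and less RNA per cell cannot be told apart.

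Saa3 and Hp were set beside the other serum amyloid A genes of the array. Saa2, a liver form, read 8.11, 7.54, 7.42 and 7.51 (day 0), 8.76, 8.59, 8.32 and 8.27 (day 7), 8.98, 8.74 and 8.47 (day 12), and 8.49, 8.31 and 8.59 (day 18), with no overlap of these later days with day 0. It rose by 0.84 ± 0.19 (day 7), 1.09 ± 0.21 (day 12) and 0.82 ± 0.21 (day 18) (limma adjusted p = 0.0110, 0.00523 and 0.0466), against 6.73%, 3.24% and 2.01% of all genes called. At day 3 Saa2 read 8.58, 8.09 and 8.77, the lowest under day 0 replicate 1. Its difference at day 3 was of like size, 0.83 ± 0.21, but did not pass (limma adjusted p = 0.158 over all probe sets). The day 18 call was lost on leaving out any array of day 18 or any of day 0 other than replicate 1 (adjusted p between 0.0721 and 0.235). Given the beta-actin ratio as covariate, none of the 3 calls was kept (adjusted p = 0.128, 0.144 and 0.190). The other Saa2 probe set, 100333_at, differed by -0.10 ± 0.26, 0.05 ± 0.28 and -0.01 ± 0.28 at days 7, 12 and 18, and the mean of both probe sets passed on no day. The suffix of 103465_f_at marks a probe set shared within a gene family, so that signals of near-identical family members cannot be told apart there, and Saa1 was not analysed here. Saa4, a constitutive form, had means of 5.17 to 5.35, under the negative control level, with differences of -0.17 to -0.09 from day 3 to day 18.

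The 24 other acute phase genes measured were counted by the same test in ankle. At day 3, 1 of 24 rose, at day 7, 3 rose and 1 fell, at day 12, 1 rose, and at day 18, 1 rose and 1 fell. That is 4.17%, 16.7%, 4.17% and 8.33% of the list, beside 0.23%, 6.73%, 3.24% and 2.01% of all genes. The median difference of the 24 genes was 0.08, -0.01, 0.20 and -0.11 at these days, beside a median of -0.01, 0.00, -0.03 and 0.00 over all genes. Mt2, a metallothionein that binds zinc and copper, rose by 1.17 ± 0.23 at day 3 and 1.03 ± 0.21 at day 7 (limma adjusted p = 0.0387 and 0.00553). Ptx3, a pentraxin made locally, rose by 0.92 ± 0.20 at day 7 with both means under the negative control level (adjusted p = 0.00704). Cp, the gene of the copper carrier ceruloplasmin, fell by 1.74 ± 0.36 at day 7 and 1.71 ± 0.39 at day 18 (adjusted p = 0.00629 and 0.0280), calls that were lost under the beta-actin covariate (adjusted p = 0.0683 and 0.108). The day 3 call of Mt2 was lost without the liver-transcript arrays (adjusted p = 0.0665) and on leaving out any array of day 3 or replicate 1 or 3 of day 0 (adjusted p between 0.0709 and 0.189). The day 18 call of Cp was lost on leaving out any array of day 18 or replicate 1 or 2 of day 0 (adjusted p between 0.0591 and 0.203). The day 7 call of Ptx3 was lost with a floor at the 20th percentile of each array (0.698) and under the beta-actin covariate (0.107). That covariate also lost the day 3 call of Mt2 (0.135). Hpx, the gene of haemopexin, which binds free haem, had differences between -0.17 and 0.65, none past the test.

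**Figure D3:**
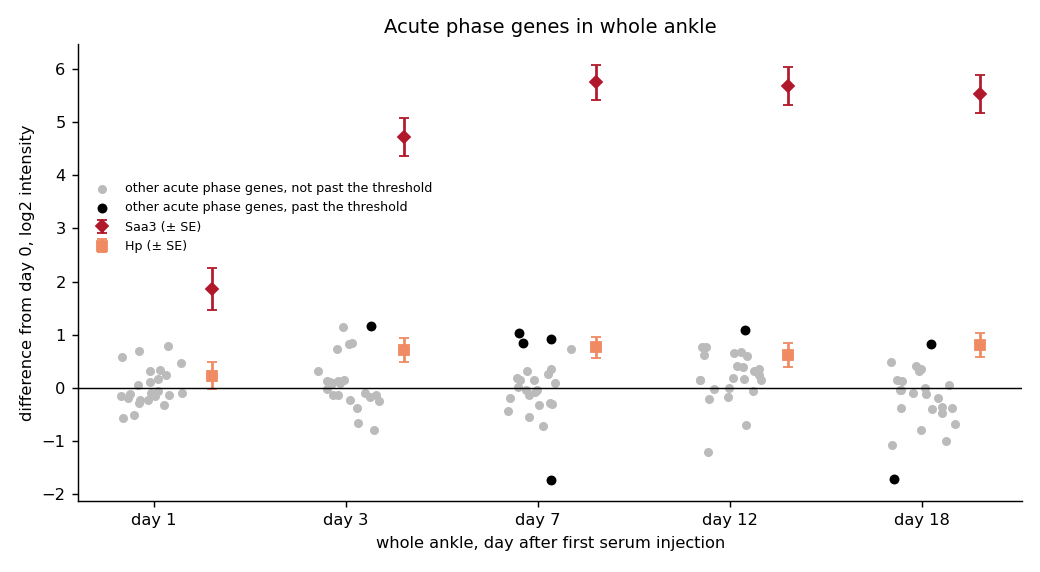
Difference from day 0 in whole ankle, in log2 intensity, for Saa3 (diamonds, ± SE), Hp (squares, ± SE) and 24 other acute phase genes (points, black where past the limma threshold of 0.05), by day. Saa3 lies between 4.72 and 5.76 from day 3 on, Hp between 0.61 and 0.81, and no other gene of the list lies above 1.17.

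Inducers of the acute phase were measured in the same ankle arrays. Of 22 measured, 0, 4, 5 and 1 rose at days 3, 7, 12 and 18, and none fell, beside 0.23%, 6.73%, 3.24% and 2.01% of all genes called in either direction. Il1b, the gene of interleukin-1 beta, rose by 1.63 ± 0.26 (day 7), 1.78 ± 0.28 (day 12) and 2.02 ± 0.28 (day 18) (limma adjusted p = 0.000706, 0.00102 and 0.000317), against a day 0 mean of 5.10, under the negative control level. Socs3, the feedback inhibitor of interleukin-6 signalling, rose by 1.62 ± 0.35 at day 7 and 1.90 ± 0.37 at day 12 (adjusted p = 0.00708 and 0.00676). Il6 rose by 0.71 ± 0.16 at day 7 (adjusted p = 0.0108), with means of at most 3.62, under the negative control level, and the call was lost with a floor at the 20th percentile (a difference of 0.046, adjusted p = 0.578). Il1r1, the interleukin-1 receptor gene, rose by 1.25 ± 0.25 at day 7 (adjusted p = 0.00430), and Nfkbia, an inhibitor of NF-kB that NF-kB itself induces, by 0.84 ± 0.17 at day 12 (adjusted p = 0.00745, and 0.0681 without day 12 replicate 2). Under the beta-actin covariate the day 7 calls of Il1r1 and Il6 and the day 12 call of Nfkbia were lost (adjusted p = 0.0514, 0.0907 and 0.128). That of Nfkbia was also lost in a fit of all 49 arrays (0.0802). The day 7 and day 12 calls of Socs3 were lost without the liver-transcript arrays (adjusted p = 0.0523 and 0.0647). Tnf, Stat3, Cebpb and Cebpd did not pass on any day: their differences at day 3 were 0.15, 0.15, 0.50 and 0.95. Osm was not analysed here.

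At day 3, beside a difference of 4.72 for Saa3, Il1b differed by 0.36 from a mean of 5.46 against 5.10, Il6 by 0.56, and Cebpd, a C/EBP factor, by 0.95 ± 0.30 (limma adjusted p = 0.297). Whether Saa3 moved earlier than the inducers was not tested, and both Il6 and Il1b lay under the negative control level there.

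Partners of the encoded proteins were listed as well. Of 6 measured receptors ascribed to serum amyloid A, Fpr2, a formyl peptide receptor of myeloid cells, rose by 0.85 ± 0.17 at day 7 and 0.79 ± 0.19 at day 18 (limma adjusted p = 0.00474 and 0.0305). Its means were at most 4.93, under the negative control level, and the other genes of the list did not pass. Both calls of Fpr2 were lost with a floor at the 20th percentile of each array (adjusted p = 0.0669 and 0.528) and in a fit of all 49 arrays (0.0875 and 0.262). Of 9 genes of haemoglobin and haem handling, Hmox1, the haem oxygenase that breaks haem down, rose by 0.57 ± 0.14 at day 7 and 0.66 ± 0.15 at day 18 (adjusted p = 0.0171 and 0.0255). Hba-a1, a haemoglobin chain whose protein haptoglobin binds, fell by 1.54 ± 0.27 at day 7 and 1.16 ± 0.29 at day 12 (adjusted p = 0.00172 and 0.0362). The day 18 calls of Fpr2 and Hmox1 and the day 12 call of Hba-a1 were each lost on leaving out any of 4 to 6 single arrays (adjusted p of up to 0.159, 0.134 and 0.199). That of Hmox1 at day 7 was lost without day 0 replicate 3 or day 7 replicate 2 or 4 (up to 0.0589). It was also lost in the fit of all arrays (0.0562) and under the beta-actin covariate (0.0918). Cd163, the receptor of the haptoglobin complex, was not analysed here.

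In synovial fluid cells both genes rose between day 3 and day 18, and these arrays had no part in the choice of Saa3. Saa3 read 8.02, 8.51 and 8.32 (day 3), 9.42, 9.81, 9.63 and 9.16 (day 7), 9.93, 10.49 and 9.93 (day 12), and 11.27, 10.14 and 10.18 (day 18). All later arrays lay above all day 3 arrays, where 8.07%, 19.4% and 25.1% of all genes had groups that did not overlap at days 7, 12 and 18, and day 18 replicate 1 stood apart upward. Against day 3, Saa3 rose by 1.22 ± 0.28 (day 7), 1.83 ± 0.30 (day 12) and 2.25 ± 0.30 (day 18) (limma adjusted p = 0.0242, 0.00184 and 0.000308), which are 2.34-fold, 3.56-fold and 4.75-fold. Of all genes 2.56%, 2.70% and 3.19% were called at these days.

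The day 7 call of Saa3 in fluid rested on single arrays. It was lost without day 3 replicate 1, 2 or 3 (adjusted p = 0.114, 0.0513 and 0.0754) and without day 7 replicate 2 or 3 (0.0659 and 0.0710), with differences between 1.09 and 1.34. Without the arrays of another preparation the adjusted p was 0.154, for a difference of 1.31 ± 0.35. The day 12 and day 18 calls were kept in all 16 alternative fits of each, with limma adjusted p of at most 0.0236 at day 12 and 0.00938 at day 18. The beta-actin covariate was not among these fits. In fluid the log2 ratio of beta-actin 3' over 5' signal was 1.59 to 2.39 at day 3 and 2.69 to 2.90 at day 7. It was 1.88 to 3.02 at day 12 and 2.02 to 3.61 at day 18. The part of RNA length in the fluid differences was not tested.

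Hp in fluid read 10.70, 10.90 and 10.38 (day 3), 11.85, 12.05, 11.31 and 11.61 (day 7), 12.46, 11.65 and 12.13 (day 12), and 12.49, 12.56 and 12.66 (day 18). Every later array lay above every day 3 array, and the day 18 arrays lay above all others of the fluid. Hp rose by 1.04 ± 0.25 (day 7), 1.42 ± 0.26 (day 12) and 1.91 ± 0.26 (day 18) against day 3 (limma adjusted p = 0.0322, 0.00569 and 0.000479), which are 2.06-fold, 2.67-fold and 3.76-fold. Its day 7 call was lost without day 3 replicate 1, 2 or 3 (adjusted p = 0.0803, 0.0579 and 0.176), without day 7 replicate 1, 2 or 4 (0.0716, 0.0831 and 0.0547), and without the arrays of another preparation (0.298). The day 12 and day 18 calls were kept in all 16 alternative fits of each, with adjusted p of at most 0.0471 and 0.0216. These fits did not include the beta-actin covariate either. Over the 13 fluid arrays Saa3 and Hp correlated at r = 0.84, and at r = -0.21 after each day's mean was taken off.

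The fluid arrays also gained fibroblast transcripts over these days. The summed intensity of 11 synovial fibroblast markers was 2253 to 4340 (day 3), 8821 to 16534 (day 7), 12315 to 17490 (day 12) and 13683 to 15992 (day 18). Of the 11 markers 7, 6 and 6 rose at days 7, 12 and 18, beside 2.56%, 2.70% and 3.19% of all genes called in either direction. Monocyte and macrophage markers summed to 7631 to 13319 at day 3 and 9484 to 12548 at day 18, and 0 of 11 passed at any later day. Neutrophil markers summed to 8556 to 10981 at day 3 and 11419 to 14417 at day 18, and Mmp9 was the only one of 12 that passed, at days 7 and 12. The part of the fibroblast signal in the rise of Saa3 and Hp was not tested.

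**Figure D4:**
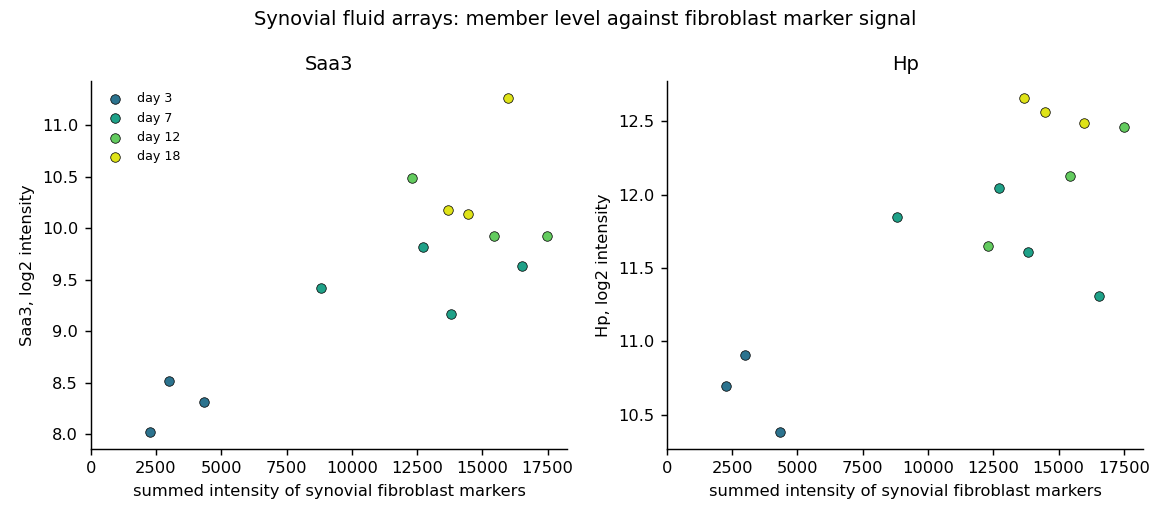
Log2 intensity of Saa3 (left) and Hp (right) against the summed linear intensity of 11 synovial fibroblast markers on the 13 synovial fluid arrays, coloured by day. The day 3 arrays are lowest on both axes, with marker sums of 2253 to 4340; among the arrays of days 7 to 18, with sums of 8821 to 17490, Hp is highest at day 18.

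Of the 24 other acute phase genes, 1, 4 and 3 rose in fluid at days 7, 12 and 18 against day 3, and none fell. Over all genes 2.56%, 2.70% and 3.19% were called at these days in either direction. Lbp, the gene of the protein that carries bacterial lipopolysaccharide, rose by 1.17 ± 0.17 at day 12 and 2.07 ± 0.17 at day 18 (limma adjusted p = 0.000850 and 7.98e-06). Mt2 rose by 1.39 ± 0.21 and 1.44 ± 0.22 at days 7 and 12 (adjusted p = 0.00124 and 0.00135) and also passed at day 18 (adjusted p = 0.00320). Cp rose by 1.69 ± 0.34 at day 12 and 2.22 ± 0.34 at day 18, against a day 3 mean of 5.59, under the negative control level (adjusted p = 0.0106 and 0.00130), and its day 12 call was lost without day 3 replicate 2 (0.0560). Without the arrays of another preparation Osmr at day 7 and Cp at day 12 did not pass (adjusted p = 0.0763 and 0.0619). Osmr, the receptor gene of oncostatin M, an inducer of the acute phase, rose by 1.53 ± 0.25 at day 7 and 1.98 ± 0.27 at day 12 (adjusted p = 0.00216 and 0.000435). Saa2 and Saa4 did not pass in fluid, with differences between -0.05 and 0.21.

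In blood leukocytes Saa3 was not above the negative controls and Hp was. Saa3 lay between 4.31 and 5.54 on all 17 blood arrays, under the negative control level. Its largest difference from day 0 was 0.79 ± 0.25, at day 18 (2 arrays against 3, limma adjusted p = 0.220), where arrays did not overlap for 55.5% of all genes. Hp in blood read 10.37, 9.16 and 10.59 (day 0), 10.04, 9.25 and 10.12 (day 1) and 10.03, 9.39 and 9.84 (day 3). At later days it read 10.69, 10.73 and 10.24 (day 7), 10.59, 10.16 and 10.31 (day 12) and 9.97 and 11.08 (day 18). Replicate 2 was low at days 0, 1 and 3, and the groups overlapped on every day. The differences of Hp from day 0 were -0.24, -0.29, 0.51, 0.31 and 0.48 at days 1, 3, 7, 12 and 18, with adjusted p between 0.437 and 0.999. In blood 0% of all genes passed on any day, and between 168 genes (day 7) and 1702 genes (day 3) had an unadjusted p under 0.05.

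Fluid cells were compared with blood leukocytes of the same day. Saa3 was higher in fluid by 3.50 ± 0.27 (day 3), 4.57 ± 0.25 (day 7), 5.39 ± 0.27 (day 12) and 5.24 ± 0.30 (day 18) (limma adjusted p = 7.22e-11, 4.88e-14, 7.32e-15 and 2.12e-13). With blood under the negative control level these are at best lower bounds. Hp was higher in fluid by 0.90 ± 0.32, 1.15 ± 0.30, 1.73 ± 0.32 and 2.05 ± 0.36 at days 3, 7, 12 and 18 (adjusted p = 0.0359, 0.00448, 0.000150 and 0.000121), which are 1.87-fold, 2.22-fold, 3.31-fold and 4.13-fold. Of all genes 30.5%, 29.5%, 32.4% and 18.9% were called at these days in either direction, so that a call alone is common here. For both genes fluid and blood arrays did not overlap on any of the 4 days, as was so for 37.6%, 29.3%, 43.7% and 59.3% of all genes. The day 3 call of Hp was lost without fluid replicate 1 or 2 (adjusted p = 0.0661 and 0.129), without blood replicate 2 or 3 (0.164 and 0.0677), without the arrays of another preparation (0.119), and after quantile normalization anew (a difference of 0.49, adjusted p = 0.256).

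Fluid cells were also set against ankle of the same day. Saa3 was lower in fluid, by -2.58 ± 0.36 (day 3), -2.39 ± 0.31 (day 7), -1.72 ± 0.36 (day 12) and -1.15 ± 0.36 (day 18), values given with no test since ankle Saa3 made the choice. Hp was lower in fluid by -1.68 ± 0.24 at day 3 and -0.69 ± 0.21 at day 7 (limma adjusted p = 4.44e-06 and 0.0206, with 22.7% and 16.9% of all genes called). At days 12 and 18 it differed by -0.16 ± 0.24 and 0.13 ± 0.24 (adjusted p = 0.766 and 0.905, with 13.4% and 10.7% called), with 95% intervals of -0.66 to 0.33 and -0.36 to 0.63. The day 7 call was lost without ankle replicate 2 (adjusted p = 0.0752), without fluid replicate 3 (0.0959) and without the arrays of another preparation (0.0705). It was also lost in the fit of all arrays (0.0533) and under the beta-actin covariate (0.0726). The change of these differences over days was not tested as such.

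**Figure D5:**
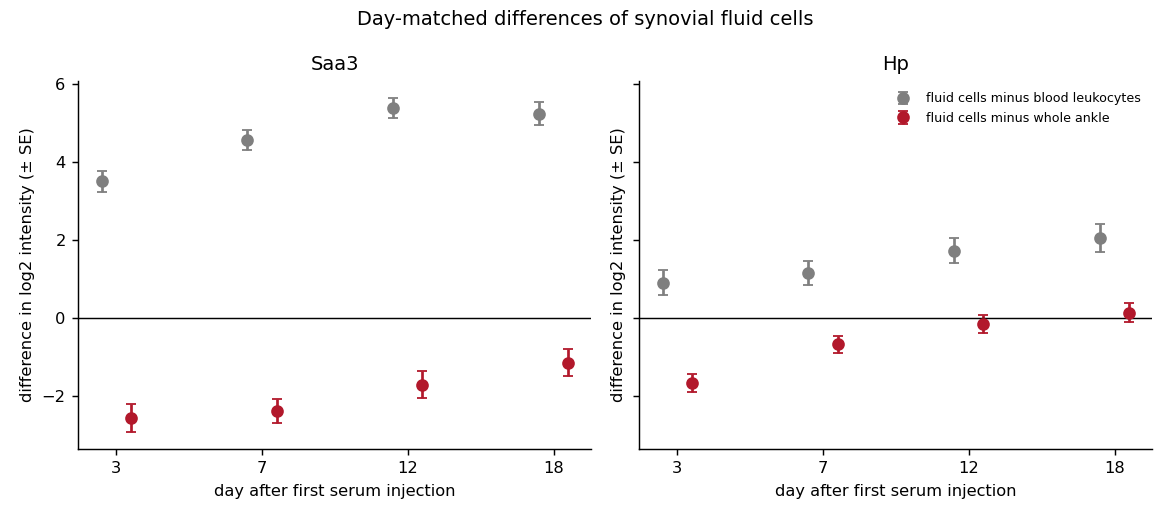
Day-matched differences in log2 intensity (± SE from limma) of synovial fluid cells minus blood leukocytes (grey) and minus whole ankle (red) for Saa3 (left) and Hp (right), by day. Fluid Saa3 lies 3.50 to 5.39 above blood and 1.15 to 2.58 below ankle; fluid Hp is 0.90 to 2.05 above blood and within 0.16 of ankle at days 12 and 18.

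At day 0 ankle and blood differed in both genes. Hp was higher in ankle by 1.59 ± 0.29 (3.01-fold, 4 arrays against 3, limma adjusted p = 3.60e-05), with 42.2% of all genes called, and by 1.45 ± 0.31 without the liver-transcript array of that day (adjusted p = 0.000437). Saa3 was higher in ankle by 1.65 ± 0.31, with both means, 6.14 and 4.50, under the negative control level, and neither mean reached it.

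Over the 16 groups Saa3 was highest in ankle at days 7, 12, 18 and 3, with means of 11.90, 11.83, 11.68 and 10.86, followed by fluid at days 18, 12, 7 and 3 (10.53, 10.11, 9.51 and 8.28), ankle at days 1 and 0 (8.003 and 6.14) and all blood groups. Neighbours in this order overlapped in their arrays, except fluid day 12 above fluid day 7, fluid day 7 above fluid day 3, ankle day 1 above ankle day 0 and blood day 1 above blood day 0. Hp was highest in fluid at day 18 (12.57), followed by ankle at days 18, 7, 3 and 12 (12.44, 12.39, 12.34 and 12.24). Fluid day 12 (12.08), ankle day 1 (11.86), fluid day 7 (11.70), ankle day 0 (11.63) and fluid day 3 (10.66) came next, and blood lay between 9.76 and 10.55. Ankle day 0 above fluid day 3 was the one pair of neighbours for Hp whose arrays did not overlap.

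The genes whose pattern was most like that of each member were ranked by Pearson's r, as a description. Over the 16 group means the genes most like Saa3 were Mmp3 (0.964), Yipf5 (0.957), Timp1 (0.956), Kif22 (0.9502) and Vcam1 (0.948), and over the 19 ankle arrays Clec4d (0.972), Mmp3 (0.940), Slpi (0.936), Timp1 (0.934) and Cstb (0.924). Without the liver-transcript arrays, over 15, they were Clec4d (0.968), Angptl4 (0.965), Mcm2 (0.943), Slpi (0.936) and Saa2 (0.935), so that Mmp3 and Timp1 were no longer among the first 5. Mmp3 encodes stromelysin, a matrix protease of fibroblasts, and Timp1 an inhibitor of such proteases. Mean ankle Mmp3 was 7.01 (day 0), 7.95 (day 1), 8.998 (day 3), 10.72 (day 7), 10.87 (day 12) and 11.02 (day 18). Mean ankle Clec4d, a lectin of myeloid cells, was 4.99, 5.76, 7.25, 8.48, 8.62 and 8.43 at the same days.

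For Hp the nearest genes over the 16 group means were Yap1 (0.963), Lum (0.962), Lamb1 (0.962), Osmr (0.960) and Fap (0.957), among them Lum, a matrix proteoglycan, and Fap, a protease of activated fibroblasts. Over the 19 ankle arrays they were Arg1 (0.883), Lst1 (0.870), Tnfrsf1b (0.865), Apobec1 (0.863) and Cd300c2 (0.856). Without the liver-transcript arrays, over 15, they were Lst1 (0.904), Tnfrsf1b (0.892), Arg1 (0.884), Cd52 (0.882) and Selplg (0.875). Arg1, the arginase of activated macrophages, had mean ankle levels of 4.79 (day 0), 4.60 (day 1), 7.12 (day 3), 7.85 (day 7), 7.84 (day 12) and 7.42 (day 18). The points share arrays and tissue composition.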

How the data were processed

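The deposited table holds, per the submitters' processing notes, linear RMA intensities (version not given in the sources used here) of 12488 probe sets on 49 arrays, with 0 missing values and 0 identical arrays. RMA corrects background and quantile normalizes. Array medians lay between 57.7 and 64.1. The number of arrays limits the precision.

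Intensities were put on the log2 scale. Genes with several probe sets were represented by the one with the highest mean. limma 3.58.1 in R 4.3.3 (lmFit, eBayes with intensity trend) fitted 1 mean per tissue and day, separately per tissue, or on both tissues of a comparison. Two-sided p-values were adjusted by Benjamini-Hochberg over 8251 genes, with a threshold of 0.05. The procedure was tested on simulated data.

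Within ankle the tests planned for both genes are not given, since their arrays entered the choice of Saa3. The members, lists and comparisons were chosen with earlier results of these data known. Named were Saa3, Hp, set members of each list, up to 4 members with the smallest p past the threshold, and the 5 most alike genes. Some members past the threshold and members without a call were named after their values were seen. Same-numbered replicates were checked for pairing. Alternatives are given at the end.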

Additional observations from a re-analysis of the deposited data

Results flagged for a closer look

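Hp lay on opposite sides of its day 0 mean in ankle and blood at day 3. The 3 ankle arrays lay 0.39 to 1.15 above the ankle day 0 mean, and the 3 blood arrays lay between -0.65 and -0.01 from the blood day 0 mean. The mean responses differ by 0.99 on the log2 scale, and this difference was not tested. After quantile normalization anew the blood difference of Hp at day 3 was -0.07, against -0.29 as deposited. The blood value rests in part on replicate 2, the lowest Hp array of blood at days 0, 1 and 3.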

How the results depend on the processing

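Of 531 values of Saa3 and Hp under alternatives other than leaving out 1 array, 515 kept their direction and their side of the threshold, or, without a test, moved by less than the spread between replicates. Some of these differences could not move, so the count overstates the check. Each gene has 1 probe set, so the mean of probe sets left its differences as they were. A robust variance estimate leaves differences as they are too. With array weights Saa3 differed by 1.61 at ankle day 7 against day 3, and came past the threshold at blood day 3 (0.43) and blood day 18 (0.80). The fluid calls at day 7 against day 3 were lost without arrays of another preparation for Saa3 (1.31) and Hp (1.03), and for Hp with a floor at the 20th percentile (1.04) and the replicate block (1.07). Hp in fluid against blood at day 3 was lost after quantile normalization anew (0.49) and without arrays of another preparation (0.93). Hp in fluid against ankle at day 7 was lost in the fit of all arrays (-0.69), under the beta-actin covariate (-0.68) and without arrays of another preparation (-0.71). The sign turned, with no call, for Hp at blood day 12 with array weights (-0.056). Saa3 in fluid against ankle became -1.98 at day 3 with array weights and with the beta-actin ratio, and -1.15 at day 12 with the latter. The count of acute phase genes called at ankle day 3, 1 in the report, was 2 after quantile normalization anew, 0 with the floor, the mean of probe sets or the beta-actin ratio, 5 with array weights and 4 in the fit of all arrays. At day 7 it was 1 with the beta-actin ratio. At day 12 it was 2 after quantile normalization anew, 0 with the mean of probe sets or the beta-actin ratio, 8 with array weights, 3 in the fit of all arrays and 2 with the replicate block. At day 18 it was 1 with the floor and 0 with the beta-actin ratio. The count of inducers at day 3 was 6 with array weights and 1 in the fit of all arrays, at day 7 it was 7 with array weights and 2 with the beta-actin ratio, and at day 12 it was 13 with array weights, 3 without liver-transcript arrays and 2 with the beta-actin ratio. At day 18 it was 3 after quantile normalization anew and in the fit of all arrays, 2 with the mean of probe sets, 9 with array weights and 4 with the replicate block. Leaving out 1 array at a time gave Saa3 0.66 to 1.47 at ankle day 7 against day 3, -0.27 to 0.15 at ankle day 12 and -0.42 to 0.0015 at day 18, both against day 7, and 1.09 to 1.34 in fluid at day 7 against day 3. It gave Hp -0.11 to 0.27 at ankle day 7 against day 3, -0.056 to 0.17 at day 18 against day 7, -0.68 to 0.036, -0.13 to 0.59 and -0.067 to 1.03 at blood days 1, 12 and 18, 0.90 to 1.18 in fluid at day 7 against day 3, 0.72 to 1.04 in fluid against blood at day 3, and -0.80 to -0.56 and -0.36 to 0.051 in fluid against ankle at days 7 and 12. Counts of acute phase genes ran from 0 to 2 at ankle day 3 and 0 to 1 at day 18, and of inducers from 2 to 5 at day 12 and 1 to 5 at day 18. The causes of these changes were not tested. Of 94 results of other named genes, 53 kept their call in every fit. Deviations from group means of same-numbered replicates correlated at -0.18 to 0.73 in ankle (median 0.199, against -0.113 for other numbers), -0.45 to 0.82 in blood (0.194 against -0.132) and -0.31 to 0.68 in fluid (-0.061 against -0.060). Only 26 of 41, 25 of 40 and 7 of 18 such pairs lay above 0.1, and 11 of 19, 11 of 17 and 6 of 13 arrays were closest to their own number. This is a hint of shared numbers in ankle and blood from the data, not from the labels, and the replicates were not treated as paired. The replicate block changed no other call of Saa3 and Hp. Leaving out the dimmest genes, a share of 0.333, removed Saa3 from the blood comparisons. The beta-actin covariate was used only in fits that hold ankle arrays, so not within fluid, within blood or for fluid against blood. Background correction and slide could not be varied from RMA values. Differences of genes near the negative controls are limited by signal over background.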

Other observations

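The genes most like Hp were also ranked within blood and within fluid. Over the 17 blood arrays they were Asprv1 (r = 0.930), Fpr2 (0.913), Mmp9 (0.911), Dhrs7 (0.896) and Xdh (0.894). Mmp9, a gelatinase stored in neutrophil granules, and Fpr2 are known from neutrophils. In fluid, over 13 arrays, they were Hspb8 (0.942), Sdc2 (0.942), Smoc1 (0.925), Scd1 (0.923) and Sgce (0.914), and for Saa3 Htra3 (0.960), Col4a1 (0.942), Dpt (0.925), Ccnd2 (0.923) and Gstt1 (0.920). These rankings were added after seeing the data, and the points share arrays and cell composition.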
